A study of Homo sapiens with 12 samples.

Results

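The response to SAHA that both gastric cancer lines had in common was measured as the difference between 6 SAHA libraries and 6 DMSO libraries, with the cell line as a block. These are all 12 small RNA libraries of the series. They form 4 groups of 3 libraries: HGC-27 cells given 5 µM SAHA for 24 h, HGC-27 cells given the solvent DMSO, AGS cells given 5 µM SAHA for 24 h, and AGS cells given DMSO. HGC-27 and AGS are established human gastric cancer lines, both kept in RPMI 1640 with serum, and no genetic change was made in either. The labels number the replicates but do not say that they were separate cultures, so the p-values measure the spread between these libraries, which may be technical. With 2 lines, the common effect describes these lines only. Of 2909 entries in the count table, 1906 annotated mature microRNAs were used, and 608 of them passed the filter on low counts and were tested. Table totals lay between 2665109 and 6525388 counts per library, and levels are given as TMM-scaled CPM, each count as a share of its library, in the order of the replicate numbers.

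SAHA (vorinostat) inhibits histone deacetylases, enzymes that take acetyl groups off histones and other proteins, so that acetylation accumulates. A microRNA is cut from a hairpin in a longer transcript, first by Drosha in the nucleus and then by Dicer in the cytoplasm. The resulting duplex has a 5p and a 3p arm, of which the guide arm is loaded into an Argonaute protein while the passenger arm is mostly degraded. The loaded strand finds its target messages mainly through its seed, bases 2 to 8. Many hairpins lie in clusters cut from a single transcript, and members of a family share a seed even where they lie on different chromosomes. Fewer cells of a type and less RNA per cell cannot be told apart in such bulk libraries, and CPM is a share of the library, not an amount per cell.

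The sequences on which the results turn are given here from RefSeq (GRCh38.p14), 5′ to 3′, with the seed in capitals. The first set shows the miR-449 cluster of chromosome 5 beside miR-34a-5p of chromosome 1, since miR-449a and miR-449b-5p have the seed of miR-34a-5p and moved the other way. In miR-449c-5p the same letters stand 1 base later.
miR-449a: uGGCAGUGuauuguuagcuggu
miR-449b-5p: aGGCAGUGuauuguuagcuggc
miR-449c-5p: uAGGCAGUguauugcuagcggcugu
miR-34a-5p: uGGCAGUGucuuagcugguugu

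The next set shows a pair of microRNAs that were rare or unlisted with DMSO and rose in every SAHA library.
miR-891a-5p: uGCAACGAaccugagccacuga
miR-184: uGGACGGAgaacugauaagggu

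The 6 microRNAs that share 1 seed, the capitals below, cut from clusters on chromosomes 13, 7 and X, are shown because all of them fell.
miR-17-5p: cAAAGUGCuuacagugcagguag
miR-20a-5p: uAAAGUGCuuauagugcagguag
miR-93-5p: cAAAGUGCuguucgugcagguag
miR-106a-5p: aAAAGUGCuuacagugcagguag
miR-106b-5p: uAAAGUGCugacagugcagau
miR-20b-5p: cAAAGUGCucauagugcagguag

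The miR-181 arms are shown because they tell apart the copies on chromosome 1 (miR-181a-3p and miR-181b-3p) and on chromosome 9 (miR-181a-2-3p and miR-181b-2-3p), whose 5p arms have the same sequence in both copies. The 3p arms of the miR-181a copies differ at 3 of 22 positions, 2 of them in the seed.
miR-181a-5p: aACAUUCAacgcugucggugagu
miR-181a-3p: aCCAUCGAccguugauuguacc
miR-181a-2-3p: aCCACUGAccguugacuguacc
miR-181b-5p: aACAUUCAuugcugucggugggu
miR-181b-3p: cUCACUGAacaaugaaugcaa
miR-181b-2-3p: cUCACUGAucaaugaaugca

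Last come both arms of the hairpins whose minor arm fell most among the largest falls.
miR-92a-1-5p: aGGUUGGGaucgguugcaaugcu
miR-92a-3p: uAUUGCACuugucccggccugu
let-7c-5p: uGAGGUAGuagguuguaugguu
let-7c-3p: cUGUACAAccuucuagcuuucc

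SAHA changed the microRNA content of both lines broadly. The largest rises were of microRNAs that the DMSO cells hardly contained, such as miR-891a-5p, miR-184 and the miR-449 cluster, while the falls were smaller and took in abundant microRNAs of the miR-17 to miR-92a clusters, let-7 and miR-30 families. Of the 608 microRNAs tested, 265 (43.6%) were called at an adjusted p under 0.05 by edgeR's quasi-likelihood test with Benjamini-Hochberg adjustment, 145 of them higher (23.8%) and 120 lower (19.7%). A change of 2-fold or more was found in 92 of the rises and 30 of the falls. The median log2 fold change of all 608 was 0.07. The filter took in 104 microRNAs that would not have passed on the DMSO libraries alone, and 56 of the 145 called higher were among them. On the SAHA libraries alone 39 would not have passed.

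How many microRNAs counted as higher or lower rested on the scaling. With plain library totals in place of TMM, 171 were called higher and 76 lower, and the median of all 608 moved to 0.22. With the predicted entries fitted together with the annotated ones, 117 were called higher and 171 lower, and the median moved to -0.09. All changes are given relative to the TMM scale, and the smallest ones turn with it.

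The calls rested on both lines in most cases. For 104 microRNAs (17.1%) the 3 SAHA libraries lay above the 3 DMSO libraries in each line, and for 75 (12.3%) they lay below in each line. Of these 179, 176 were called, and the other 89 calls had overlapping libraries in at least 1 line. A difference between the responses of AGS and HGC-27 was called for 11 microRNAs (1.81%) by edgeR's quasi-likelihood test on the interaction, and 109 had an unadjusted p under 0.05. That count was 2 without HGC-27 DMSO 3, 5 without HGC-27 SAHA 1, 6 without AGS SAHA 2, 7 without HGC-27 DMSO 1, HGC-27 DMSO 2 or AGS SAHA 1, and 20 without AGS DMSO 3. Among the 265 calls over both lines, 4 were also called for that difference. Across the 608 microRNAs the log2 fold changes of HGC-27 and AGS had a Pearson r of 0.76 and a Spearman rho of 0.70, given as a description, since microRNAs of 1 transcript are not independent and rare ones carry much counting error.

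**Figure D1:**
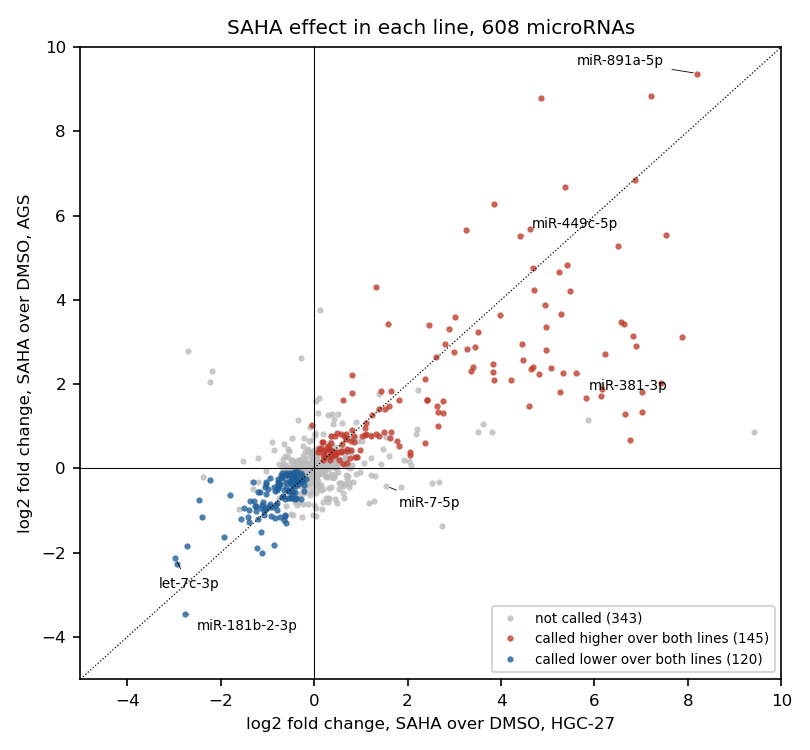
Log2 fold change of SAHA over DMSO in HGC-27 (horizontal axis) and in AGS (vertical axis) for the 608 microRNAs tested, 1 point each; red points were called higher over both lines (145), blue points lower (120) and grey points were not called (343), and the dotted line marks equal changes. miR-891a-5p lies at the upper right, let-7c-3p and miR-181b-2-3p lie at the lower left, and miR-7-5p lies at 1.54 in HGC-27 and at -0.42 in AGS.

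Among the rises, miR-199b-5p had the smallest p-value. Its hairpin lies between genes on chromosome 9, and it belongs to a family known from mesenchymal cells. HGC-27 held it at 497, 513 and 525 CPM with SAHA, against 77.3, 72.8 and 70.2 CPM with DMSO. AGS held it at 309, 255 and 238 CPM with SAHA, against 43.7, 28.3 and 30.4 CPM with DMSO. All 6 SAHA libraries lay above all 6 DMSO libraries (log2 fold change 2.88 ± 0.12 SE, adjusted p = 1.22e-08 by edgeR's quasi-likelihood test). The 3p arms of the miR-199a and miR-199b hairpins share their reads and cannot be told apart. They rose as well (2.02 each), while miR-199a-5p did not pass the test (0.73, adjusted p = 0.449), and its value turned to -0.23 without HGC-27 SAHA 2.

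All 3 tested members of the miR-449 cluster rose. Its 3 hairpins lie at chr5:55170532-55172353 (GRCh38), in an intron of CDC20B on the minus strand, and its products are known from multiciliated cells and as relatives of the tumour suppressor miR-34a. miR-449c-5p, the most abundant, stood at 298, 296 and 313 CPM in HGC-27 with SAHA, against 12.03, 16.6 and 14.3 CPM with DMSO. In AGS it stood at 142, 126 and 154 CPM with SAHA, against 2.78, 4.33 and 1.87 CPM with DMSO. The common log2 fold change was 4.85 ± 0.23 (SE, adjusted p = 3.09e-08). miR-449a (3.94, adjusted p = 3.96e-05) and miR-449b-5p (4.19, adjusted p = 6.23e-05) rose with it, both by edgeR's quasi-likelihood test.

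miR-34a-5p, which a different locus makes, fell. It stood at 460, 466 and 474 CPM in HGC-27 with SAHA, against 607, 774 and 781 CPM with DMSO, and at 170, 190 and 158 CPM in AGS with SAHA, against 298, 269 and 294 CPM with DMSO. The groups did not overlap in either line (log2 fold change -0.68 ± 0.08 SE, adjusted p = 5.7e-05 by edgeR's quasi-likelihood test). Summed over miR-449a, miR-449b-5p, miR-449c-5p and miR-34a-5p, the level was 813 ± 19.6 CPM in HGC-27 with SAHA and 739 ± 102 CPM with DMSO (SD, n = 3 each). In AGS this sum was 329 ± 3.39 CPM with SAHA and 290 ± 14.6 CPM with DMSO. The miR-449 share of it was 346 ± 15.0 CPM in HGC-27 with SAHA and 18.4 ± 3.32 CPM with DMSO, and 157 ± 12.7 CPM in AGS with SAHA and 3.18 ± 1.24 CPM with DMSO.

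miR-184, a microRNA known from the eye and the nervous system, rose by 4.98 ± 0.42 on the log2 scale (SE, adjusted p = 4.07e-06 by edgeR's quasi-likelihood test). It stood at 76.9, 77.9 and 82.7 CPM in HGC-27 with SAHA, against 0.49, 0.75 and 4.63 CPM with DMSO, and at 35.7, 46.3 and 59.3 CPM in AGS with SAHA, against 1.67, 2.00 and 1.87 CPM with DMSO. Every SAHA library lay far above the DMSO libraries of both lines.

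miR-891a-5p, made at Xq27 in a cluster known from the epididymis, stood at 12.5, 8.61 and 11.1 CPM in HGC-27 with SAHA and at 24.9, 20.3 and 27.4 CPM in AGS with SAHA, and was listed in none of the 6 DMSO libraries. Against a floor of 3 counts in each DMSO library it was at least 19.7-fold higher (adjusted p = 4.86e-06 by edgeR's quasi-likelihood test). Its neighbours miR-892a and miR-888-5p rose too. For miR-892a the 6 SAHA libraries held 221 counts and the 6 DMSO libraries 3, a ratio of 84.9 in CPM with an exact 95% interval of 28.7 to 415, which covers counting error only.

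Among other microRNAs called higher and almost unlisted with DMSO, miR-483-3p and miR-1224-5p were listed in none of the DMSO libraries and were at least 12.4-fold and at least 4.72-fold higher. miR-654-3p had 198 counts with SAHA and 2 with DMSO, a ratio of 114 (31.2 to 948). It belongs to the DLK1-DIO3 cluster, in which HGC-27 SAHA 2 stood apart, but here that library held 5.02 CPM, beside 4.37 and 6.80 CPM in its replicates. miR-1224-5p is made from a short intron without Drosha. MicroRNAs such as these, and those named below to complete a cluster, a hairpin or a list, were chosen after their values were seen.

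**Figure D2:**
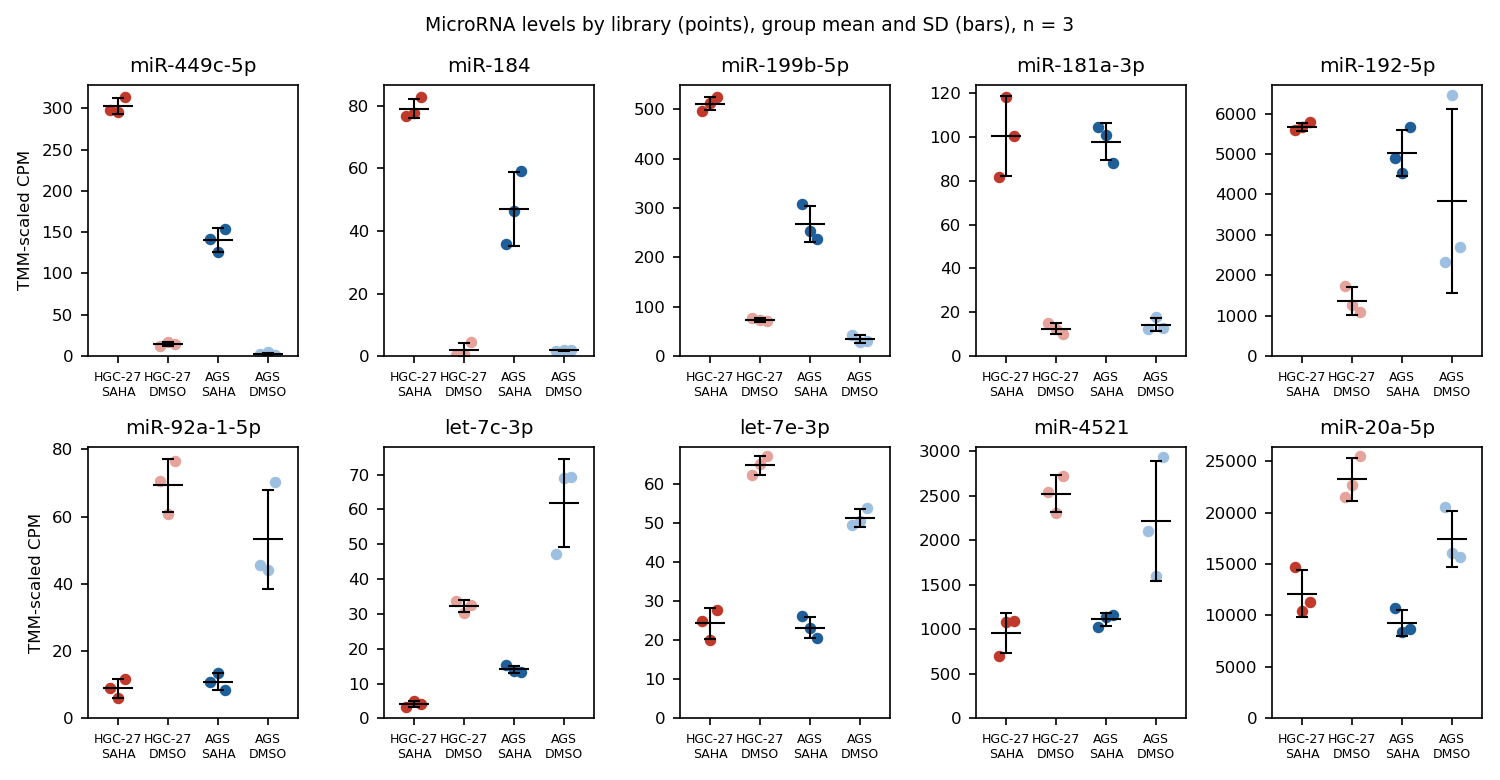
Level in TMM-scaled CPM (vertical axes, linear and starting at 0) of 10 microRNAs in HGC-27 and AGS with SAHA and with DMSO; each point is 1 library and the bars give the mean and SD of 3. The upper row shows microRNAs that rose, with miR-192-5p overlapping in AGS (4517 to 5655 CPM with SAHA, 2336 to 6446 CPM with DMSO), and the lower row shows microRNAs that fell without overlap in either line.

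Other large rises depended on 1 library for their size. HGC-27 SAHA 2 stood apart from its replicates in microRNAs of the brain and of the imprinted DLK1-DIO3 region of chromosome 14. Its sums were also the highest of its group for blood cell markers (479 CPM, against 72.8 and 119 CPM). The same was true of fibroblast and smooth muscle markers (2481, against 803 and 1107 CPM) and muscle and liver markers (359, against 98.4 and 207 CPM). For epithelial and for gut and stomach markers it was not. miR-381-3p, of the DLK1-DIO3 region, stood at 49.4, 1793 and 56.2 CPM in HGC-27 with SAHA, against 13.5, 17.8 and 7.91 CPM with DMSO. AGS held it at 110, 150 and 174 CPM with SAHA, against 20.9, 50.6 and 18.7 CPM with DMSO. The groups did not overlap in either line, so the rise did not rest on that library, but its size did. The log2 fold change was 3.92 (adjusted p = 0.0103) with all libraries and 2.14 (adjusted p = 7.46e-05) without HGC-27 SAHA 2, both by edgeR's quasi-likelihood test.

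The same held for miR-370-3p (6.13, and 4.53 without that library), miR-495-3p (4.83 and 3.41), miR-136-3p (3.97 and 2.27) and miR-9-3p (3.75 and 2.66), all of which stayed called. miR-1298-5p, cut from an intron of HTR2C, was called at 5.03 and at 4.21 without it. Of the calls whose libraries overlapped in a line, miR-124-3p (5.78 and 3.56) and miR-708-5p (5.16 and 3.22) remained called without HGC-27 SAHA 2. miR-433-3p did not: its log2 fold change was 5.03 (adjusted p = 0.0194) and then 2.40 (adjusted p = 0.144) by edgeR's quasi-likelihood test.

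The largest falls without overlap in either line and of at least 10 CPM were mostly of minor arms. The share of minor arms among all 608 tested was not counted, so this describes these falls alone. Among the 141 hairpins with both arms tested, both were called lower in 30. The minor arm was called lower beside an uncalled major arm in 18, and the reverse held in 10. miR-92a-1-5p, the passenger arm of the last hairpin of the miR-17 to miR-92a cluster, stood at 9.06, 6.1 and 11.8 CPM in HGC-27 with SAHA, against 70.5, 60.8 and 76.6 CPM with DMSO. In AGS it stood at 10.8, 13.5 and 8.47 CPM with SAHA, against 45.7, 44.0 and 70.2 CPM with DMSO (log2 fold change -2.61, adjusted p = 4.07e-06 by edgeR's quasi-likelihood test). let-7c-3p stood at 3.12, 5.02 and 4.08 CPM in HGC-27 with SAHA, against 33.6, 30.4 and 32.6 CPM with DMSO, and at 15.3, 13.5 and 13.3 CPM in AGS with SAHA, against 47.3, 69.0 and 69.3 CPM with DMSO (-2.53, adjusted p = 1.9e-06).

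Both passed without overlap in either line. The guide arms of the same hairpins moved far less: miR-92a-3p fell by 0.56 on the log2 scale, and let-7c-5p did not pass the test (-0.20, adjusted p = 0.44), although it was called without HGC-27 SAHA 2 (-0.46, adjusted p = 0.0044 by edgeR's quasi-likelihood test). Of the 8 other largest falls under these limits, 6 were likewise passenger arms: miR-365b-5p (-1.75), miR-152-5p (-1.58), miR-19b-1-5p (-1.56), miR-20a-3p (-1.31), let-7e-3p (-1.28) and miR-125a-3p (-1.23). miR-4454 fell by 1.39. Outside these limits miR-181b-2-3p (-3.14), miR-29b-1-5p (-2.33) and miR-26a-1-3p (-1.77) were called with falls as large as many of these.

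The remaining one, miR-4521, was the most abundant of the 10. It lies between genes on chromosome 17. HGC-27 held it at 697, 1078 and 1091 CPM with SAHA, against 2548, 2307 and 2723 CPM with DMSO, and AGS at 1032, 1141 and 1161 CPM with SAHA, against 2109, 1604 and 2941 CPM with DMSO. The SAHA libraries lay below the DMSO libraries in each line (log2 fold change -1.20, adjusted p = 1.22e-04 by edgeR's quasi-likelihood test).

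The most abundant microRNAs changed little. miR-21-5p, an oncogenic microRNA whose hairpin lies within VMP1, took the largest share of every library. It stood at 255050, 225611 and 236443 CPM in HGC-27 with SAHA, against 262220, 330441 and 275756 CPM with DMSO, and at 334832, 279936 and 348340 CPM in AGS with SAHA, against 400640, 402522 and 399218 CPM with DMSO. It fell by 0.30 on the log2 scale (adjusted p = 0.0063 by edgeR's quasi-likelihood test). The call was lost without HGC-27 SAHA 2, AGS SAHA 2 and AGS DMSO 2 together (-0.21, adjusted p = 0.108). These were the highest for neuron markers in their groups, as was HGC-27 DMSO 2, which was kept. The passenger arm miR-21-3p fell by 0.97 (adjusted p = 1.18e-06).

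Among the other 7 most abundant, let-7i-5p (-0.43) and miR-30a-5p (-0.47) fell. miR-27b-3p (-0.21, adjusted p = 0.0184) lost its call with plain library totals (-0.05, adjusted p = 0.568) and, among single libraries, without HGC-27 DMSO 2 (adjusted p = 0.0683), HGC-27 DMSO 3 (0.0519) or AGS SAHA 3 (0.0544). let-7g-5p (-0.08) and let-7f-5p (-0.03) were not called, and both values turned positive with plain library totals, whereas let-7g-5p was called lower with the predicted entries fitted together (-0.23, adjusted p = 0.0248 by edgeR's quasi-likelihood test). miR-100-5p was not called (-0.28, adjusted p = 0.0813), but was called without AGS SAHA 1 (adjusted p = 0.00819), AGS DMSO 1 (0.0391) or AGS DMSO 2 (0.0314), and with the predicted entries fitted together (0.00567).

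miR-148a-3p, the second most abundant microRNA and one typical of gastric and gut epithelium, turned on a single control. It stood at 127936, 104393 and 104261 CPM in HGC-27 with SAHA, against 55589, 91217 and 66984 CPM with DMSO. AGS held it at 26846, 24420 and 53223 CPM with SAHA, against 17057, 47339 and 18226 CPM with DMSO, where the groups overlapped through AGS DMSO 2. It was not called (0.50, adjusted p = 0.172), and was called without AGS DMSO 2 (0.79, adjusted p = 0.0079 by edgeR's quasi-likelihood test). Its passenger arm miR-148a-5p rose without overlap in either line (0.71, adjusted p = 6.93e-04).

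The abundant microRNAs that changed 1.5-fold or more were miR-20a-5p (-0.92), miR-17-5p (-0.91), miR-192-5p (1.23), miR-126-3p (0.97), let-7e-5p (-0.63) and miR-4521. miR-20a-5p, an oncogenic microRNA of the miR-17 to miR-92a cluster, stood at 14704, 10416 and 11289 CPM in HGC-27 with SAHA, against 21512, 22686 and 25537 CPM with DMSO. In AGS it stood at 10710, 8427 and 8693 CPM with SAHA, against 20581, 16050 and 15723 CPM with DMSO. The 3 SAHA libraries lay below the 3 DMSO libraries in each line (adjusted p = 3.98e-05 by edgeR's quasi-likelihood test). The 6 members of its seed family all fell, and their sum was 24180 ± 3865 CPM in HGC-27 with SAHA and 43204 ± 2704 CPM with DMSO, and 19217 ± 2240 CPM in AGS with SAHA and 33589 ± 4931 CPM with DMSO (SD, n = 3 each).

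miR-192-5p, a microRNA of gut epithelium, rose over both lines (adjusted p = 0.0126 by edgeR's quasi-likelihood test) on the strength of HGC-27. It stood there at 5582, 5659 and 5781 CPM with SAHA, against 1734, 1269 and 1081 CPM with DMSO. AGS held it at 4894, 4517 and 5655 CPM with SAHA, against 2336, 6446 and 2700 CPM with DMSO. AGS DMSO 2 again lay above its replicates, and the groups overlapped in AGS. Its cluster mates miR-194-5p (1.18, adjusted p = 0.0028) and miR-194-3p (2.06, adjusted p = 2.32e-04) rose as well, the 3p arm without overlap in either line. miR-194-5p was placed at this cluster, but the same arm may also be cut from another copy of its hairpin. The 3 libraries of each SAHA group held miR-192-5p at like levels in both lines, while miR-215-5p of another locus did not pass the test (0.34, adjusted p = 0.653).

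The calls were also counted by hairpin cluster. With hairpins of a strand no more than 10 kb apart joined, 46 clusters had at least 2 tested hairpins. Of these, 10 had 2 or more calls that were all higher, 13 had 2 or more calls that were all lower, and 5 had calls both ways. With 1 library left out, these counts lay at 9 to 10, 10 to 17 and 3 to 6, with 3 both ways without HGC-27 DMSO 1 or HGC-27 DMSO 3. A mature name with several hairpins was placed at 1 of them, so that a shared guide arm counts for a single cluster. No test was made of the cluster counts, which are to be read against the 23.8% higher and 19.7% lower of all 608. On the DMSO libraries alone, 20 of 25 tested microRNAs of the DLK1-DIO3 region would not have passed the filter. The same was true of 5 of 7 at Xq27 and 3 of 6 arms of miR-34 and miR-449. The DLK1-DIO3 region enters as separate all-higher clusters, from miR-379 and from miR-433.

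**Figure D3:**
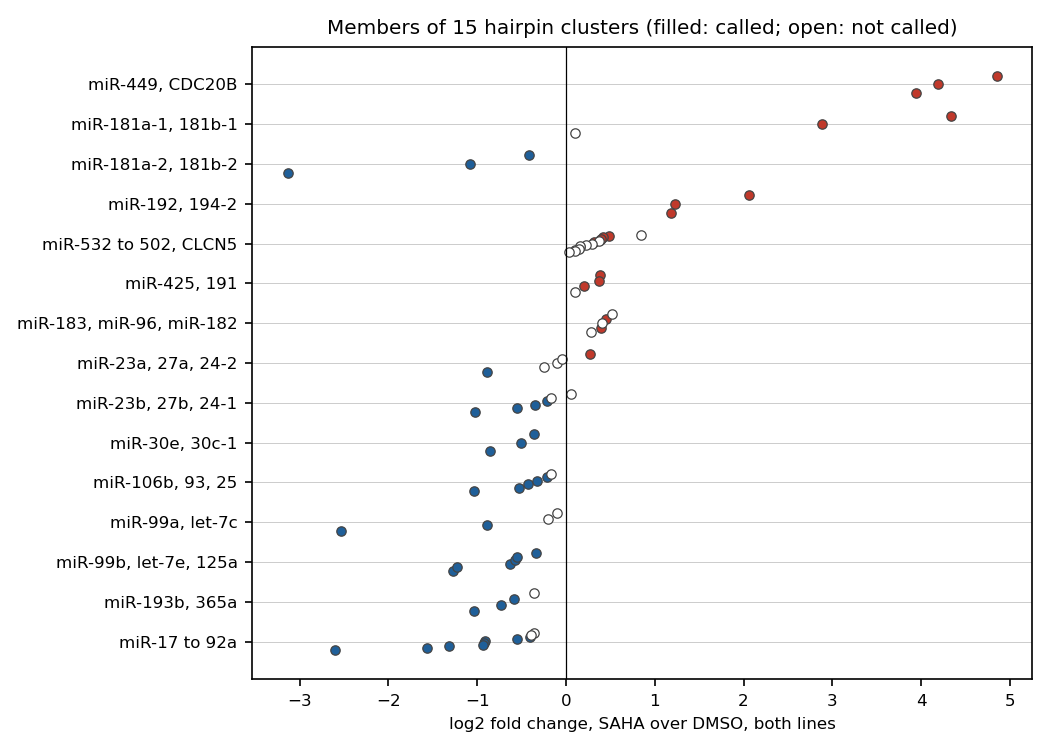
Log2 fold change of SAHA over DMSO over both lines (horizontal axis) for the tested members of 15 hairpin clusters (rows), 1 point for each mature microRNA, filled where called and open where not. The 3 members of the miR-449 cluster lie between 3.94 and 4.85, the called members of miR-17 to miR-92a lie between -2.61 and -0.40, and the clusters miR-181a-1 with miR-181b-1 and miR-181a-2 with miR-181b-2 lie on opposite sides of 0.

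The miR-181 copies went opposite ways. At the chromosome 1 copy, in an intron of MIR181A1HG, miR-181a-3p stood at 81.9, 118 and 101 CPM in HGC-27 with SAHA, against 15.0, 12.6 and 10.2 CPM with DMSO, and at 104, 101 and 88.2 CPM in AGS with SAHA, against 12.5, 17.7 and 12.6 CPM with DMSO. It rose by 2.88 ± 0.15 on the log2 scale (SE, adjusted p = 5.0e-08 by edgeR's quasi-likelihood test), without overlap. miR-181b-3p of the same copy was rare and rose too (4.33, adjusted p = 2.16e-04 by edgeR's quasi-likelihood test). It stood at 3.12, 3.23 and 3.85 CPM in HGC-27 with SAHA and was listed in none of the HGC-27 DMSO libraries.

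At the chromosome 9 copy, in an intron of MIR181A2HG, miR-181a-2-3p stood at 193, 152 and 178 CPM in HGC-27 with SAHA, against 390, 371 and 335 CPM with DMSO. In AGS it stood at 295, 284 and 356 CPM with SAHA, against 701, 589 and 715 CPM with DMSO (-1.08, adjusted p = 4.07e-06 by edgeR's quasi-likelihood test). miR-181b-2-3p fell by 3.14 (adjusted p = 1.51e-05). The 5p arm miR-181a-5p, which both copies make, was not called (0.10, adjusted p = 0.337), and its value turned to -0.05 with the predicted entries fitted together. miR-181b-5p fell by 0.41. The third copy, miR-181c with miR-181d on chromosome 19, had miR-181c-3p at -0.62 and miR-181d-5p at -0.35, both called lower.

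Of the 10 tested members placed at the miR-17 to miR-92a cluster (chr13:91350605-91351391, in MIR17HG), 8 fell. At its relative on chromosome 7, in an intron of MCM7, 5 of 6 members of miR-106b, miR-93 and miR-25 were called lower, at -0.21 to -1.03. Without HGC-27 DMSO 2, 3 of these remained called: miR-93-3p (-0.28, adjusted p = 0.0589 by edgeR's quasi-likelihood test) and miR-106b-3p (-0.19, adjusted p = 0.123) were not. The call of miR-106b-3p was also lost without any 1 of 8 other libraries. The third relative, on chromosome X, was mixed: miR-106a-5p (-0.84), miR-20b-5p (-0.89) and miR-19b-3p (-0.61) fell, whereas miR-363-3p rose (3.04, adjusted p = 0.00253 by edgeR's quasi-likelihood test). The chromosome 13 cluster also holds a miR-19b hairpin, so the fall of miR-19b-3p cannot be placed at chromosome X alone. Since miR-106a-5p differs from miR-17-5p only in its first base, reads could be split between them. miR-363-3p was rare, at 3.44, 5.74 and 3.17 CPM in HGC-27 with SAHA, against 0, 1.26 and 0 CPM with DMSO, and at 6.43, 4.82 and 5.86 CPM in AGS with SAHA, against 1.11, 1.00 and 0 CPM with DMSO. The lowest SAHA library of each line lay above its highest DMSO library.

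All 6 members of miR-99b, let-7e and miR-125a (chr19:51692612-51693339, in an intron of SPACA6) fell, by 0.33 to 1.28. The call of miR-125a-5p (-0.33, adjusted p = 0.046) was lost without any 1 of 8 libraries, among them AGS DMSO 3 (-0.29, adjusted p = 0.11), and with plain library totals. All 3 members of miR-30e with miR-30c-1, and all 4 members of let-7a-3 with let-7b, fell too. At miR-193b with miR-365a 3 of 4 fell, and miR-365a-5p was lower in each line without overlap (-1.04).

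The paralogous clusters of miR-23a and miR-23b, each with a miR-27 and a miR-24, differed. In the chromosome 9 cluster 4 of 6 members fell, led by miR-27b-5p (-1.03). Without HGC-27 DMSO 3 the calls of miR-23b-5p (-0.50, adjusted p = 0.0569 by edgeR's quasi-likelihood test) and miR-27b-3p were lost. In the chromosome 19 cluster miR-23a-5p fell (-0.89) and miR-27a-3p was called higher (0.27, adjusted p = 0.0149 by edgeR's quasi-likelihood test). This last call was lost without HGC-27 DMSO 1 (0.24, adjusted p = 0.0614), HGC-27 DMSO 3 (0.26, adjusted p = 0.0554) or AGS DMSO 1 (0.26, adjusted p = 0.0501), and with the predicted entries fitted together.

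Smaller rises were called at other clusters, to be read against the 23.8% higher of all 608. At the X-linked cluster of 8 hairpins in CLCN5, which runs from miR-532 to miR-502, 5 of 15 members were called, all higher, with miR-500a-3p (0.48) and miR-532-5p (0.38) among them. Of these, 3 were called without AGS DMSO 1, AGS SAHA 2 or HGC-27 SAHA 3. At the X-linked cluster of miR-424, miR-503, miR-542 and miR-450, miR-450a-5p (0.39) and miR-450b-5p (0.24) were called higher and miR-424-3p lower (-0.32). Of these 3 calls 1 remained without AGS SAHA 2, HGC-27 DMSO 1, HGC-27 DMSO 3 or HGC-27 SAHA 3. At miR-425 with miR-191, in an intron of DALRD3, 3 of 4 members were called higher, at 0.20 to 0.38. The call of miR-191-5p (0.20) was lost without any 1 of 10 libraries and that of miR-191-3p (0.37) without any 1 of 9, among them HGC-27 SAHA 2 (0.21, adjusted p = 0.0734, and 0.35, adjusted p = 0.116). In the miR-183 cluster, known from sensory cells, miR-183-5p (0.45) and miR-182-5p (0.40) rose without overlap in either line. With the predicted entries fitted together miR-182-5p lost its call (0.24, adjusted p = 0.0738 by edgeR's quasi-likelihood test).

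The arms of a hairpin did not always change together. The ratio of both arms within a library was tested with limma as log2((5p + 1)/(3p + 1)) in CPM, which depends on the scaling between libraries only through the added 1 CPM and so mainly for arms of a few CPM, for the 142 hairpins whose arms both averaged at least 5 CPM. It was called for 36 (25.4%). In 29 of them (20.4%) the less abundant arm fell against the more abundant arm, and in 7 (4.93%) it rose against it. Where the minor arm stood at under 1/10 of the major one, 23 of 73 hairpins were called, 21 of them with the minor arm down. Of the 36 called hairpins, 11 carry a mature arm that another hairpin also makes, so that their ratio mixes loci. The same is true of 30 of the 142 tested.

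Seen arm by arm in the 141 hairpins with both arms tested in the count model, major and minor arm were both called lower in 30 hairpins and both higher in 17. In 18 hairpins the minor arm was called lower and the major arm was not called, while 10 had the major arm lower and the minor arm not called. There was 1 hairpin, mir-338, with its major arm called lower and its minor arm called higher.

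**Figure D4:**
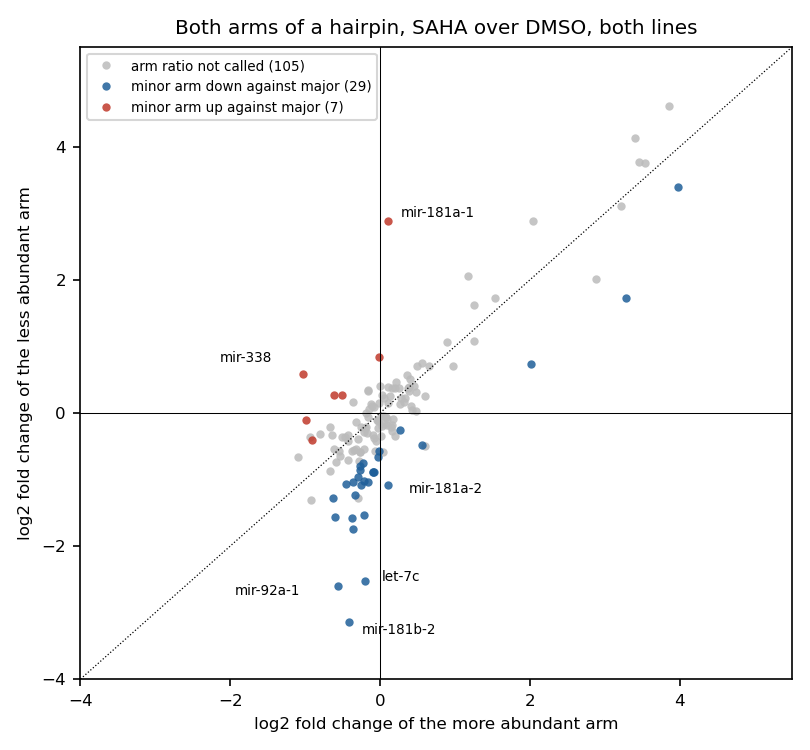
Log2 fold change of SAHA over DMSO over both lines for the more abundant arm (horizontal axis) and the less abundant arm (vertical axis) of each hairpin, 1 point per hairpin; blue marks the 29 hairpins whose minor arm fell against the major arm, red the 7 whose minor arm rose against it, and the dotted line marks equal change. let-7c, mir-92a-1 and mir-181b-2 lie far below the line, and mir-181a-1 and mir-338 lie above it.

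At mir-338, in an intron of AATK, a kinase gene, miR-338-5p stood at 501, 430 and 463 CPM in HGC-27 with SAHA, against 982, 910 and 1027 CPM with DMSO, and at 214, 243 and 195 CPM in AGS with SAHA, against 421, 432 and 449 CPM with DMSO. Its 3p arm stood at 141, 137 and 120 CPM in HGC-27 with SAHA, against 86.7, 75.1 and 83.9 CPM with DMSO, and at 48.6, 65.9 and 51.4 CPM in AGS with SAHA, against 36.5, 46.0 and 37.4 CPM with DMSO. Neither arm overlapped in either line. The log2 ratio of 5p to 3p was 1.80 in HGC-27 with SAHA and 3.56 with DMSO, and 1.96 in AGS with SAHA and 3.42 with DMSO (change -1.60 ± 0.12 SE, adjusted p = 3.4e-07 by limma). Both arms of mir-338 have a single hairpin in the table, so the ratio mixes no loci.

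The other hairpins with the largest changes in this log2 ratio were mir-181a-1 (-2.70), mir-92a-1 (-1.96) and mir-199a-2 (-1.58) towards the 3p arm, and let-7c (2.12), mir-181b-2 (2.11), mir-181a-2 (1.19) and mir-7-1 (1.04) towards the 5p arm. Of these 7, let-7c alone makes both arms from a single listed hairpin. Its log2 ratio was 8.16 in HGC-27 with SAHA and 5.65 with DMSO, and 6.88 in AGS with SAHA and 5.14 with DMSO (adjusted p = 3.2e-06 by limma). Since let-7c-5p and other let-7 guides differ by few bases, reads could still be split between them. The cause of the unequal arm changes was not tested.

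Most families of abundant microRNAs fell in part. Counts over the lists are set beside the 23.8% higher and 19.7% lower of all 608 tested and the median of 0.07, and no list was tested as a whole. Of 20 tested let-7 arms, the let-7 guides being known as tumour suppressors and markers of differentiation, 12 fell (median -0.34), with let-7b-5p (-0.46), let-7e-5p (-0.63) and let-7b-3p (-1.07) among them. With plain library totals 9 were lower. let-7a-5p was called at -0.26, a call lost under plain totals (-0.11). Of 21 arms of the miR-17 to miR-92a clusters 16 fell and 1 rose (median -0.56). The arm that rose would not have passed the filter on the DMSO libraries alone. Of 11 arms from the miR-125 family and its neighbours miR-99 and miR-100 7 fell (median -0.55). The count was 5 with plain totals, and 5 without HGC-27 SAHA 2, HGC-27 DMSO 1, HGC-27 DMSO 2 or HGC-27 DMSO 3.

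Of 11 miR-30 arms 7 fell (median -0.36), 4 with plain totals, and miR-30d-5p was not called (-0.12, positive with plain totals, and called lower at -0.27 with the predicted entries fitted together). Of 9 miR-181 arms 5 fell and 2 rose (median -0.35), and with plain totals 3 fell. Of the 2 that rose, 1 would not have passed the filter on the DMSO libraries alone. On the SAHA libraries alone, 1 of the 9 would not have passed. Of 11 arms of these miR-23, miR-27 and miR-24 families 5 fell and 1 rose (median -0.21), with 2 lower under plain totals and 3 without HGC-27 DMSO 3. Of 8 microRNAs of the HOX gene clusters 5 fell (median -0.39), among them miR-10a-5p (-0.43) and miR-196a-5p (-0.32), while 2 fell under plain totals. Of 8 arms of the miR-130 and miR-301 family 4 fell (median -0.35), and 2 under plain totals. For these families the count of falls thus moved with the scaling by more than 1.5 times.

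Smaller or no movement was found in other families. Of 12 arms of the miR-15 and miR-16 family 3 fell (median -0.15): miR-16-2-3p, miR-16-1-3p and miR-424-3p, which was more abundant here than miR-424-5p. The count was 1 under plain totals, 6 with the predicted entries fitted together, 5 without AGS DMSO 2 and 1 without HGC-27 SAHA 3. Of 7 miR-29 arms 2 fell (median -0.18), both passenger arms on chromosome 7: miR-29a-5p (-1.20), lost without HGC-27 DMSO 2 (adjusted p = 0.051 by edgeR's quasi-likelihood test), and miR-29b-1-5p (-2.33). Of the 7, 2 would not have passed the filter on the SAHA libraries alone. A high level with DMSO thus helped decide what was tested. Of 4 arms of miR-221 and miR-222 only miR-222-5p fell (-1.54; median -0.22), 3 were lower without AGS DMSO 2, 2 without AGS SAHA 1, and all 4 with the predicted entries fitted together. Of 6 arms of the miR-200 family, which restrains the shift of epithelial cells to a mesenchymal state, none was called in either direction by edgeR's quasi-likelihood test (0 of 6, median 0.20). None of the 6 had an unadjusted p under 0.05, and DESeq2 called 0. Without AGS DMSO 2, miR-200b-3p (0.74, adjusted p = 0.0153 by edgeR's quasi-likelihood test) and miR-200a-5p (1.20, adjusted p = 0.0187) were called higher.

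Families that rose were few and small. Besides the miR-34 and miR-449 family (3 higher and 1 lower of 6, or 2 lower without AGS SAHA 1 or AGS SAHA 2, with 3 of the 6 not passing the filter on the DMSO libraries alone), 3 of 4 arms of miR-192, miR-194 and miR-215 rose (median 1.20), 3 of 4 arms of miR-199 (median 2.02) and 2 of 5 of the miR-183 cluster (median 0.41). The miR-199 count takes the 3p arms of miR-199a and miR-199b as 2, although they cannot be told apart. Of 10 arms made without Drosha 4 were called higher (median 0.19), and 1 of these 4 would not have passed the filter on the DMSO libraries alone. The call of miR-320c (0.25, adjusted p = 0.0434) was lost without any 1 of the 12 libraries, and that of miR-320a (0.26, adjusted p = 0.0203) without any 1 of 7, among them AGS SAHA 1 (0.23, adjusted p = 0.0532), so that 2 of the 10 were called without any 1 of those 7. Neither was called with the predicted entries fitted together.

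**Figure D5:**
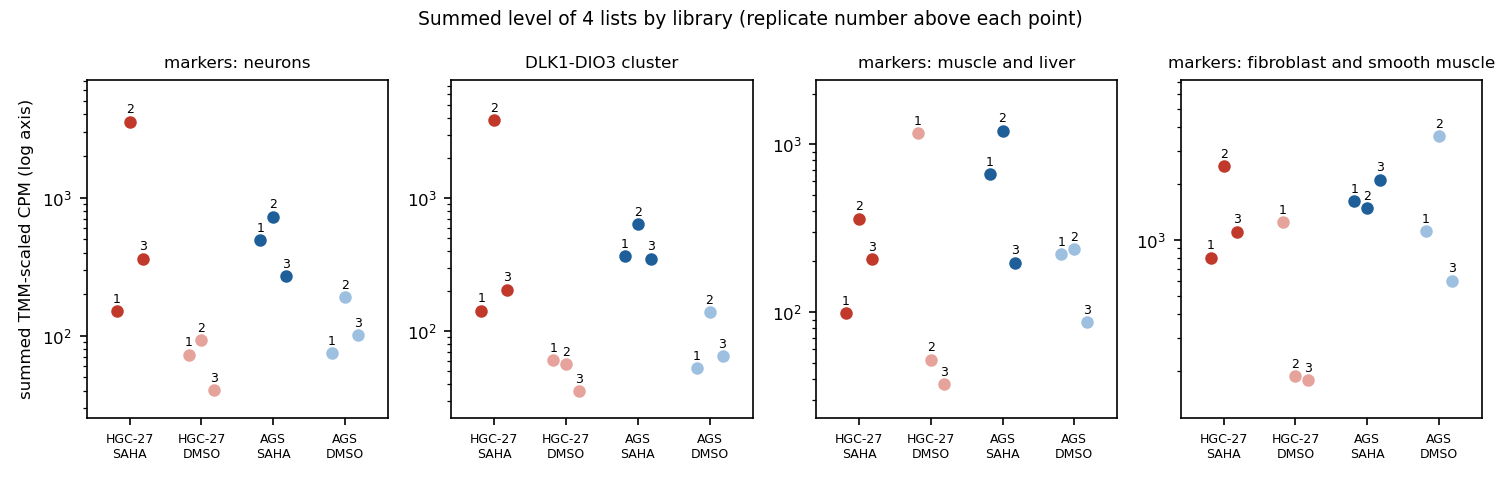
Summed level in TMM-scaled CPM (vertical axes, log scale) of 4 lists in each library, with the replicate number above each point. HGC-27 SAHA 2 stands at 3552 CPM for neuron markers and at 3855 CPM for the DLK1-DIO3 cluster, and HGC-27 DMSO 1 stands at 1165 CPM for muscle and liver markers.

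Lists of tissue-restricted and imprinted microRNAs differed in their counts, and single libraries stood apart in some of them. The DLK1-DIO3 cluster is normally expressed from the maternal chromosome and is high in brain. Of its 86 names in the deposited counts, 25 were tested, and 23 of these were called higher. Of the 25, 20 would not have passed the filter on the DMSO libraries alone, so that a high level with SAHA helped decide what was tested. Of the 5 that would have passed on the DMSO libraries alone, 4 were called higher. The summed level of all 86 was 143, 3855 and 205 CPM in HGC-27 with SAHA, against 60.4, 56.8 and 35.5 CPM with DMSO, and 367, 638 and 351 CPM in AGS with SAHA, against 52.6, 139 and 65.1 CPM with DMSO. Without HGC-27 SAHA 2, 19 were called, and 17 without HGC-27 SAHA 2, AGS SAHA 2 and AGS DMSO 2. These 3 were each the highest for neuron markers in their group, and the setting was chosen after the data were seen. HGC-27 DMSO 2, also the highest of its group, was kept. The DLK1-DIO3 sums did not overlap between SAHA and DMSO in either line.

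Neuron markers moved alongside. Of 16 names listed, 11 were tested, and 6 of these would not have passed on the DMSO libraries alone. Of the 11, 7 were called higher, 6 without HGC-27 SAHA 2, and DESeq2 called 4. DESeq2 gave no adjusted p for miR-124-3p, miR-129-5p and miR-129-1-3p, which count as not called there. The sum over all 16 was 151, 3552 and 360 CPM in HGC-27 with SAHA, against 72.7, 93.2 and 40.3 CPM with DMSO, and 491, 729 and 269 CPM in AGS with SAHA, against 74.6, 190 and 101 CPM with DMSO. The largest part of it was miR-9-5p, at 72.8, 2658 and 236 CPM in HGC-27 with SAHA and 33.9, 57.8 and 14.5 CPM with DMSO. The part of these markers in the other rises, and what set HGC-27 SAHA 2 apart, were not tested.

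Of 23 Xq27 microRNAs in the table, known from testis and epididymis, 7 were tested and 6 of these were called higher. Since 5 of the 7 would not have passed the filter on the DMSO libraries alone, a high level with SAHA helped decide what was tested, and this count describes the 7 alone. The sum over all 23 was 37.8, 23.0 and 34.0 CPM in HGC-27 with SAHA, against at most 0.39 CPM in any HGC-27 DMSO library. In AGS it lay between 140 and 248 CPM with SAHA and between 30.4 and 69.0 CPM with DMSO. HGC-27 SAHA 2 was the lowest library of its group here.

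Of 29 microRNAs that have been reported as silenced in gastric cancer, 22 were tested, and 6 of these would not have passed the filter on the DMSO libraries alone. Of the 22, 10 were called higher and 1 lower. miR-9-5p (3.53), miR-129-5p (3.45) and miR-941 (0.33) were among the higher ones, 7 were called higher without HGC-27 SAHA 2, and DESeq2 called 4 higher. DESeq2 gave no adjusted p for miR-124-3p, miR-127-3p, miR-127-5p, miR-129-5p and miR-129-1-3p. Without HGC-27 DMSO 1 or HGC-27 DMSO 3, 6 were called higher. Of the 10, 8 are also in the neuron or DLK1-DIO3 lists. miR-129-5p was called with that library (3.45) and without it (2.84). It stood at 36.6, 182 and 41.5 CPM in HGC-27 with SAHA, against 3.44, 4.27 and 2.31 CPM with DMSO, and at 124, 111 and 128 CPM in AGS with SAHA, against 21.7, 28.3 and 17.8 CPM with DMSO. The call of miR-941 was lost without any 1 of 9 libraries, among them AGS SAHA 3 (0.26, adjusted p = 0.115), and with the predicted entries fitted together.

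The chromosome 19 cluster, a primate cluster known from placenta, had 59 names in the table and 6 tested, of which 4 were called lower and 2 higher. These counts were not stable, and 1 of the 2 called higher would not have passed the filter on the DMSO libraries alone. Without a filter 47 were tested, 11 called higher and 3 lower, and without HGC-27 SAHA 2, AGS SAHA 2 and AGS DMSO 2, 21 were tested, 12 called higher and 1 lower. miR-522-3p (-0.44) and miR-1283 (-0.51) fell. miR-516a-5p was called higher at 0.50, a call lost without any 1 of 8 libraries, among them AGS DMSO 3 (0.43, adjusted p = 0.138), and with the predicted entries fitted together. miR-516b-5p was also called higher, at 37.8, 6.43 and 72.3 CPM in AGS with SAHA and 3.06, 0 and 0.94 CPM with DMSO. With 1 library left out, between 6 and 20 members were tested, and the number called higher lay between 1 and 10, being 8 without HGC-27 SAHA 2, 10 without AGS SAHA 2 and 1 without AGS SAHA 1 or AGS SAHA 3. With plain library totals 2 of the 6 were called higher and 1 lower.

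Markers of the other cell types were mixed. Of 7 tested markers of gut and stomach epithelium 4 were called higher (median 1.18), and their sum lay between 29871 and 59849 CPM in AGS with SAHA, between 19852 and 54821 CPM in AGS with DMSO, between 111427 and 135195 CPM in HGC-27 with SAHA, and between 58282 and 93184 CPM in HGC-27 with DMSO. miR-148a-3p made up 81.8 to 88.9% of it in AGS with SAHA and 85.1 to 86.4% in AGS with DMSO, and 93.4 to 94.6% in HGC-27 with SAHA and 95.4 to 97.9% in HGC-27 with DMSO. Of 8 epithelial markers 0 were called by edgeR's quasi-likelihood test (median 0.20), 0 had an unadjusted p under 0.05, and DESeq2 called 0. With the predicted entries fitted together miR-203a-3p was called lower (-0.27, adjusted p = 0.0181 by edgeR's quasi-likelihood test). The calls of miR-200b-3p and miR-200a-5p without AGS DMSO 2 count here too, and miR-205-5p was called higher without AGS DMSO 3 (2.26, adjusted p = 0.0473 by edgeR's quasi-likelihood test). The sum of the epithelial markers lay between 1853 and 2445 CPM over all 12 libraries. miR-203a-3p made up most of it, and the miR-200 family together stood at 234 to 756 CPM.

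Both endothelial marker arms were called higher (median 0.83). miR-126-3p, made in an intron of EGFL7, stood at 2158, 2635 and 1824 CPM in HGC-27 with SAHA, against 1144, 1050 and 866 CPM with DMSO. AGS held it at 2521, 2502 and 3730 CPM with SAHA, against 1504, 2226 and 1207 CPM with DMSO (adjusted p = 6.91e-04 by edgeR's quasi-likelihood test). The groups did not overlap in either line.

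Of 8 fibroblast and smooth muscle markers 3 were called higher (median 0.67), all of them miR-199 arms, while miR-143-3p was not called (0.19, adjusted p = 0.859). The 3p arms of miR-199a and miR-199b, which cannot be told apart, count as 2 of these 3 and both enter the sum. The marker sum lay between 803 and 2481 CPM in HGC-27 with SAHA, between 179 and 1242 CPM with DMSO, between 1482 and 2099 CPM in AGS with SAHA, and between 605 and 3568 CPM with DMSO. Of 8 blood cell markers miR-144-5p rose and miR-486-3p fell (median 0.05), and the call of miR-486-3p was lost without HGC-27 DMSO 1 (adjusted p = 0.0524), HGC-27 DMSO 3 (0.0554), AGS SAHA 1 (0.0541) or AGS DMSO 1 (0.054). Without AGS DMSO 2 or HGC-27 SAHA 2, 2 of these markers were called lower. Of the 8, 4 would not have passed the filter on the DMSO libraries alone, miR-144-5p among them, and 3 not on the SAHA libraries alone.

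Of 5 muscle and liver markers miR-499a-5p was called higher (1.29, median 0.04), with 2 called higher without AGS DMSO 3, HGC-27 SAHA 1 or HGC-27 SAHA 3. miR-1-3p was not called (-0.08, adjusted p = 0.975) and turned on HGC-27 DMSO 1, where it stood at 1035 CPM, against 6.78 and 4.82 CPM in the replicates. Without that library 3 were called higher, miR-1-3p among them (2.66, adjusted p = 0.0144 by edgeR's quasi-likelihood test). The part of such markers in the other results was not tested.

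A common effect does not describe every microRNA. miR-7-5p, a microRNA known to restrain growth factor signalling, stood at 49905, 49312 and 54584 CPM in HGC-27 with SAHA, against 14500, 19893 and 18661 CPM with DMSO, and at 16438, 15353 and 17128 CPM in AGS with SAHA, against 22354, 17849 and 25101 CPM with DMSO. It was higher in every SAHA library of HGC-27 and lower in every SAHA library of AGS. With the line block it was not called (0.56, adjusted p = 0.176), and as the mean of the 2 line contrasts, whose spread leaves out the difference between the lines, it was (0.56, adjusted p = 8.38e-04). The difference between the lines was called (-1.95, AGS minus HGC-27, adjusted p = 5.82e-04 by edgeR's quasi-likelihood test). miR-27a-5p was the other abundant microRNA to do this, at 0.30 in HGC-27 and -0.80 in AGS.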

How the data were processed

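Small RNA of 12 libraries was sequenced, and the authors deposited raw counts per mature microRNA and hairpin in 1 table. Per the submitters' processing notes cutadapt and Novoalign 2.07.11 were used. The genome build, the microRNA database and how reads matching several hairpins were counted were not given in the sources used here. A second deposited table was not used. The smallest listed count was 2, and blanks were read as 0, so a 0 may stand for 1 count. The 860 predicted entries were left out. A mature name listed with more than 1 hairpin (111 names) was taken once, from the entry with the highest total.

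Counts were tested with edgeR 4.0.16 in R 4.3.3 (TMM scaling, filterByExpr over the 4 groups, quasi-likelihood test with line and treatment as terms, Benjamini-Hochberg adjustment over 608 microRNAs, threshold 0.05). The SE of a log2 fold change is its size divided by the square root of F. The difference between lines is the interaction term. Arm ratios were tested with limma 3.58.1. A microRNA unlisted in a group was set at a floor of 3 counts per library. There were no molecular identifiers, so intervals and floors cover counting error only. Hairpin positions come from GENCODE 29 (GRCh38) and mature sequences from RefSeq.

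On simulated data for the comparison over both lines (608 microRNAs), 45.3% of 1.5-fold, 78.1% of 2-fold and 90.3% of 4-fold changes were recovered, and 3 of 408 unchanged microRNAs were called.

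MicroRNAs were named by a rule: the 10 largest rises and 10 largest falls without overlap in each line and with at least 10 CPM, the 8 most abundant, the 6 most abundant called at 1.5-fold or more, the 3 most abundant called and the most abundant uncalled member of each list, the 4 largest arm changes each way, up to 4 that moved opposite ways in the lines, and the 3 largest calls with overlap. The 28 lists and the comparison itself were chosen with earlier results of these data known. Alternatives were RLE scaling, plain totals, DESeq2 1.42.0, other filters, no line block, a replicate block, the mean of the 2 line contrasts, predicted entries fitted together and each library left out. A microRNA without an adjusted p from DESeq2 was counted as not called by it. Leaving out 3 libraries together was chosen after seeing the data.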

Additional observations from a re-analysis of the deposited data

Results flagged for a closer look

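Of the 11 microRNAs called for a difference between the lines by edgeR's quasi-likelihood test (AGS minus HGC-27), 4 fall under the naming rule. miR-7-5p had a difference of -1.95 on the log2 scale, with all SAHA libraries above DMSO in HGC-27 and all below in AGS. miR-27a-5p had a difference of -1.1. Its call was lost with same-numbered libraries as a replicate block (adjusted p = 0.12), without HGC-27 SAHA 1 (adjusted p = 0.0507) and without HGC-27 DMSO 3 (adjusted p = 0.0637). miR-516a-5p had a difference of 1.07 (adjusted p = 0.0112), and miR-30a-3p one of 0.51 (adjusted p = 0.0288). The call of miR-516a-5p was lost under the replicate block and without any 1 of 7 libraries: HGC-27 SAHA 1 or 2, HGC-27 DMSO 1, 2 or 3, and AGS SAHA 1 or 2 (adjusted p = 0.0551 to 0.127). That of miR-30a-3p was lost under the replicate block, with RLE scaling (adjusted p = 0.0544), and without any 1 library other than AGS DMSO 3 (adjusted p = 0.106 to 0.286).

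The predicted entries, which were left out except where fitted together with the annotated ones as an alternative, took a larger share of the counts in AGS with SAHA, at 4.93, 5.93 and 4.84%, against 3.89, 3.65 and 3.84% in AGS with DMSO. In HGC-27 they took 4.03, 4.09 and 4.05% with SAHA and 4.10, 3.45 and 3.85% with DMSO, and these overlapped.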

How the results depend on the processing

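The number called over both lines (265) was 264 with RLE scaling, 270 with DESeq2 (134 higher and 136 lower), 280 of 1380 without a filter, 196 of 408 with at least 10 CPM, 290 as the mean of the 2 line contrasts, and 233 to 311 with 1 library left out. It was 271 (162 higher and 109 lower) without HGC-27 SAHA 2, AGS SAHA 2 and AGS DMSO 2. Without the line block it was 148 (93 higher and 55 lower), and plain totals left 76 lower. Arm ratios without the line block gave 23 calls, 18 of them with the minor arm down, and the count with the minor arm up lay between 6 and 11 with 1 library left out.

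With same-numbered SAHA and DMSO libraries as a replicate block, 210 were called (121 higher and 89 lower), and the difference between the lines was called for 1 in place of 11. The deviations of same-numbered libraries from their group means had correlations of -0.32, -0.01 and 0.07 in HGC-27 and 0.00, 0.04 and -0.09 in AGS. With 3 libraries per group these values cannot show whether same-numbered libraries were prepared together, and the labels do not say. With 1 library left out the difference between the lines was called for 2 to 20 microRNAs.

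Log2 fold changes that turned sign were small or of a few libraries. Plain totals gave let-7g-5p 0.077, let-7f-5p 0.13, miR-30d-5p 0.042, miR-221-3p 0.12, miR-23a-3p 0.055, miR-203a-3p 0.032, miR-484 0.073, miR-451a 0.16 and miR-1-3p 0.035. A minimum of 10 CPM gave let-7f-5p 0.023, miR-221-3p 0.022 and miR-451a 0.031. No line block gave miR-143-3p -0.071 and miR-1-3p 0.40, the replicate block gave miR-1-3p 1.95, and predicted entries fitted together gave miR-181a-5p -0.048 and miR-10b-5p -0.024. Without the 3 libraries let-7f-5p was 0.0081. With 1 library left out miR-451a lay between -0.80 and 0.34, miR-1-3p between -0.72 and 2.66, miR-199a-5p between -0.23 and 1.23 and miR-143-3p between -0.50 and 0.96. The cause of these turns was not tested.

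Depth limits microRNAs of a few CPM, since 0 to 2 counts stand behind many of their DMSO values.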
